A study of Mus musculus with 6 samples.

Results

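The genes described here are those whose values in all 4 knock-down libraries lay on the same side of both empty vector libraries, in a mouse skin squamous cell carcinoma line in which Ntn1 or Unc5b had been knocked down. The deposited table gives whole numbers scaled to 20 M per library, and the rule also asked for a mean of at least 20 over the 6 libraries. Of 49671 genes listed, 15330 reached that mean, and 4841 of these (31.6%) met the rule. All 4 knock-down values were above both empty vector values in 2517 genes (16.4% of the genes tested) and below both in 2324 (15.2%). Because the rule reads the same values, these counts and the sizes of the differences are a description.

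All 6 libraries came from 1 line, LKPR EPCAM+, labelled as epithelial cells with a genotype that includes Lgr5CreER, p53fl/fl and Rosa26-YFP+/+. The whole genotype, with the conditional alleles and the YFP reporter, is shared by the controls and the knock-downs. In this genotype the Lgr5 promoter drives an inducible Cre recombinase. The controls (2 libraries) carried TRC1 as the empty vector. The other groups carried pLKO.1-puro, a lentiviral vector for short hairpin RNAs, directed at Ntn1 (2 libraries) or at Unc5b (2 libraries), and puromycin resistance was tested after transduction. The hairpins' number and sequences were not stated. No library carried a hairpin directed at neither gene. A difference shared by both knock-downs therefore cannot be told apart from an effect of carrying any hairpin. Nor can it be told apart from differences between separately transduced cells. The cells were plated, kept for 6 days, and sorted as living cells positive for YFP and EPCAM before bulk RNA sequencing. Whether the 2 libraries of each group stem from separate cultures is not stated. The p-values below therefore cover the spread among these 6 libraries alone, part of which may be technical.

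Netrin-1, the product of Ntn1, is a secreted guidance protein of the laminin-related family, and UNC5B is one of its transmembrane receptors. UNC5B belongs to the dependence receptors, which can signal for cell death when no ligand is bound. In an epithelial-to-mesenchymal transition (EMT), cells lose keratin-rich epithelial features and gain motility and matrix remodelling, and in carcinomas of the skin intermediate states that keep EPCAM are known.

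The metalloproteinase genes of chromosome 9 are shown first, because 5 of them were called higher in the knock-downs side by side in the genome. Mmp13, Mmp12, Mmp1b, Mmp3 and Mmp10 encode secreted enzymes that cut collagens and other matrix proteins, and they lie between 7272514 and 7510240 on chromosome 9 (GRCm38). These were all 5 tested Mmp genes of that stretch; Mmp1a stood below the mean of 20, at 43 or less in every library. The 250 bases before the start of each gene are given below from RefSeq (GRCm38.p6), 5′ to 3′ on the gene's strand, with the capitals marking matches to the AP-1 motif TGANTCA, where N is any base. AP-1 is the dimer of FOS and JUN family proteins, and this kind of element in the promoters of metalloproteinase genes is textbook knowledge. Mmp12 has a pair of annotated starts, and the downstream one is shown.
Mmp13: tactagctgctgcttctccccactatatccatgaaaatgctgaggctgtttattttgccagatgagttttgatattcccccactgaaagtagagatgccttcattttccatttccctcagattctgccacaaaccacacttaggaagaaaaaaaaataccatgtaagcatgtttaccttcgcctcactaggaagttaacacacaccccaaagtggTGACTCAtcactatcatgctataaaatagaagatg
Mmp3: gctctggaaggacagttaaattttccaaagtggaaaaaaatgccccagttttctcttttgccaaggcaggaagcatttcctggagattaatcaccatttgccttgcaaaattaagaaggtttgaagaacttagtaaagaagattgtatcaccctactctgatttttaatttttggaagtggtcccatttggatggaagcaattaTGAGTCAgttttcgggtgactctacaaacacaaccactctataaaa
Mmp10: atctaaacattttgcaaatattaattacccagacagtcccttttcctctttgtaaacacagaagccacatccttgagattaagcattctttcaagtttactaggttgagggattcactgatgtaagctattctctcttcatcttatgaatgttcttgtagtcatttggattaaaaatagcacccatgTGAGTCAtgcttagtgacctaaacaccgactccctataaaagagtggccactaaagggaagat
Mmp12: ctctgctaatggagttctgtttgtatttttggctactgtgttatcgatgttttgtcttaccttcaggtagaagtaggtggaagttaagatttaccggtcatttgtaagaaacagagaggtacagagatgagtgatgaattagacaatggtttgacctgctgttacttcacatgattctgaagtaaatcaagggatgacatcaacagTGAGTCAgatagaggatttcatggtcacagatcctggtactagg
Mmp1b: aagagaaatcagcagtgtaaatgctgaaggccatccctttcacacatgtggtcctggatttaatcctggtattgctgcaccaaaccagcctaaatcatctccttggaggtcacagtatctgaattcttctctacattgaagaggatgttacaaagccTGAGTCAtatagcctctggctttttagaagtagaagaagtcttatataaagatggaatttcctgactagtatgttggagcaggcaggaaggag

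These windows are chr9:7272264-7272513 for Mmp13, chr9:7445572-7445821 for Mmp3, chr9:7502092-7502341 for Mmp10 and chr9:7347124-7347373 for Mmp12, all on the plus strand. That of Mmp1b is chr9:7388027-7388276 on the minus strand. The first base of the match lay 35 bases before the start in Mmp13, 44 in Mmp12, 46 in Mmp3, 63 in Mmp10 and 93 in Mmp1b. For Mmp10 and Mmp1b the RefSeq start was not found in GENCODE transcripts, and GENCODE begins these genes at 7502352 and 7388047, from where the distances would differ. The upstream start of Mmp12 had no match in its 250 bases. The RefSeq table matched 9698 of the 15330 tested genes by symbol (63.3%). Over the 9687 symbols of these, read on both strands, the motif stood in 5.75% of all tested genes, in 42 of 367 (11.4%) of the called higher genes and in 20 of 274 (7.3%) of the called lower genes. Among the members without regard to the call it stood in 6.75% of the higher and 6.46% of the lower genes. The TATA box letters TATAAA stood in 7.71% of all tested genes, 12.5% of the called higher and 6.93% of the called lower genes. A match describes the letters of a window and is not a measured binding site.

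The deposited values of Mmp13 (collagenase-3) were 100 and 231 with the empty vector, 2475 and 2428 with Ntn1 and 3819 and 2177 with Unc5b knocked down. The 4 knock-down libraries lay together and the lowest of them stood above both controls. Mmp13 was 16.5-fold higher over the 4 knock-down libraries taken as 1 group (log2 fold change 4.08 ± 0.33 SE, limma adjusted p = 0.000923). Here and below, fold values are ratios of group means as deposited, whereas log2 fold changes are on the scale log2(value + 5), which understates the change of low genes. Mmp3 (stromelysin-1) was at 22 and 27 with the empty vector, 490 and 346 with Ntn1 and 143 and 197 with Unc5b knocked down, highest in the Ntn1 knock-down. Mmp10 (stromelysin-2) was at 29 and 75 with the empty vector, 209 and 205 with Ntn1 and 177 and 160 with Unc5b knocked down, the smallest separation of the 5, with a log2 fold change of 1.88 ± 0.34 SE (limma adjusted p = 0.015). Mmp1b (a collagenase) was at 24 and 9 with the empty vector, 136 and 217 with Ntn1 and 126 and 132 with Unc5b knocked down, and Mmp12 (macrophage elastase) at 4 and 7 with the empty vector, 93 and 135 with Ntn1 and 64 and 88 with Unc5b knocked down. The exons of Mmp12 and Mmp1b overlap annotated exons of other genes. These genes also overlap each other in span. Mmp12 reaches from 7344381 to 7369499 on the plus strand and Mmp1b from 7368239 to 7388047 on the minus strand. How the authors' counting treated strand is not stated, so reads of overlapping genes cannot be told apart. Mmp3, Mmp10, Mmp12 and Mmp1b were singled out after their values had been seen.

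The wider list of metalloproteinases and inhibitors had 25 tested genes. Of these, 11 met the rule on the higher side and 3 on the lower side, and the pooled limma fit called 10 higher and 2 lower, against 6.29% called over all tested genes. Over all tested genes 31.6% met the rule, the share to set beside the counts of each list here and below. The list's median log2 fold change was 0.74, beside 0.01 over all tested genes. Mmp9 (gelatinase B, chromosome 2, 164940780 to 164955850) was at 134 and 43 with the empty vector, 1158 and 1015 with Ntn1 and 3061 and 3171 with Unc5b knocked down. It was 23.7-fold higher over the 4 libraries (4.50 ± 0.57 SE, limma adjusted p = 0.0041), and both Unc5b knock-down values stood above both Ntn1 knock-down values. Adamts14, a protease that trims procollagen, was at 8 and 48 with the empty vector, 797 and 930 with Ntn1 and 485 and 340 with Unc5b knocked down. On the lower side, Timp3, a matrix-bound inhibitor of these enzymes, was at 12061 and 17275 with the empty vector, 3819 and 3495 with Ntn1 and 1605 and 1936 with Unc5b knocked down (5.41-fold lower, limma adjusted p = 0.00599). Adamts1, a proteoglycan-cutting protease, was at 2840 and 2828 with the empty vector, 640 and 609 with Ntn1 and 996 and 1112 with Unc5b knocked down (3.38-fold lower, limma adjusted p = 0.00611). The list's calls were 8 higher and 2 lower without empty vector library 1, and 6 higher and 0 lower without library 2. Mmp13, Adamts14, Mmp12 and Mmp1b stayed called without each of the 6 libraries in turn. Mmp9, Mmp3, Timp3 and Adamts1 did not: Mmp9 lost its call without empty vector library 2.

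The plasminogen system, which activates several of these enzymes, had 14 tested genes, with 8 on the higher side and 2 on the lower side of both controls and 3 called higher and 2 lower (median 0.71). Serpinb2, plasminogen activator inhibitor 2, was at 159 and 57 with the empty vector, 3367 and 2544 with Ntn1 and 806 and 3555 with Unc5b knocked down, with Unc5b knock-down library 1 the lowest of the 4. Plau, the urokinase activator, was at 11501 and 15642 with the empty vector, 20182 and 18781 with Ntn1 and 24028 and 21015 with Unc5b knocked down, a 1.55-fold difference (limma adjusted p = 0.0453). The call of Plau was lost whichever library was left out, knock-down libraries included. Serpinb9b was 2.84-fold higher. Serpinb8 was 3.03-fold lower and F3, tissue factor, 1.76-fold lower, at 542 and 594 with the empty vector, 311 and 260 with Ntn1 and 316 and 403 with Unc5b knocked down. Among the fits with 1 library left out, only that without Unc5b knock-down library 2 called F3. Without empty vector library 1, Plau, Serpinb9b and F3 were among the 5 genes named for proteases and serpins that lost their call (adjusted p 0.0509 to 0.22), and without library 2 the 9 that lost it had adjusted p from 0.0536 to 0.266.

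Over all tested genes, the pooled limma fit called 965 genes (6.29%), of which 540 were higher (3.52%) and 425 lower (2.77%). All 965 met the rule, as the fit and the rule read the same values. Unadjusted p under 0.05 was reached by 3358 genes (21.9%). The calls with at least a 2-fold change numbered 354 higher and 260 lower, and those with at least a 4-fold change 155 and 112. Most members were close to the controls: the median absolute log2 fold change was 0.54 in the higher and 0.53 in the lower members, and the nearest knock-down and control values were a median 1.15-fold and 1.14-fold apart after adding 5. They were at least 2-fold apart in 227 higher and 151 lower members and at least 4-fold apart in 53 and 37. Members made up 25.3% of tested genes with a mean from 20 to under 50 and 35.2% of those in the highest of 5 level classes. Just inside the mean of 20 stood Iffo1 and Rbpjl, both with a mean of 20, and just outside 4833445I07Rik and Gm11940, both at 19.83. With 4 libraries against 2, the smallest 2-sided p of an exact permutation test is 0.133, so none was used for single genes.

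The number of calls moved with the empty vector libraries, among other choices given in the closing section. Library 2 was above library 1 in 51.8% of all tested genes, but in 63.3% of the lower members and in 320 of the 425 called lower genes (75.3%). It was above library 1 in 43.3% of the called higher genes. With 1 empty vector library left out, the fit takes the spread of the lone control from the knock-downs. Without empty vector library 1 the fit called 253 genes higher and 183 lower, and without library 2, 134 higher and 40 lower. Leaving out each of the 6 libraries in turn, 136 of the 965 genes stayed called, and all 965 kept their sign. The estimated depth was 6.54 to 10.2 M reads per library, so that 3 reads correspond to 5.9 to 9.17 in the scaled unit (a floor for counting error only). Libraries of 1 group correlated across genes at 0.98 to 0.99 and libraries of different groups at 0.936 to 0.967.

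The targeted genes themselves were looked at first for the labels. Ntn1 (ENSMUSG00000020902, chromosome 11, 68209364 to 68400823) was at 1566 and 2588 with the empty vector, 359 and 431 with Ntn1 and 1319 and 771 with Unc5b knocked down. It met the rule on the lower side, since both Unc5b knock-down libraries were also below the controls, but the pooled fit did not call it (-1.67 ± 0.48 SE, limma adjusted p = 0.0804). Unc5b (ENSMUSG00000020099, chromosome 10, 60762593 to 60831581) was at 1527 and 1573 with the empty vector, 2311 and 2382 with Ntn1 and 419 and 352 with Unc5b knocked down, low in its own knock-down and high in the other, and so was no member. Among 11 tested netrin ligands, receptors and partners, the targeted genes included, 1 lay on the higher and 4 on the lower side, Ntn1 among the latter. Limma called 0 in either direction (unadjusted p under 0.05 in 1 higher and 4 lower genes). Neo1, which encodes the receptor neogenin, was at 4151 and 4870 with the empty vector, 5386 and 5125 with Ntn1 and 4741 and 3961 with Unc5b knocked down, with values on both sides of the controls. The line's epithelial markers were present in every library: Epcam, the sorted surface protein, was at 8032 and 9336 with the empty vector, 10127 and 9736 with Ntn1 and 9186 and 9121 with Unc5b knocked down, and Cdh1 (E-cadherin) at 7460 and 8419 with the empty vector, 9380 and 8767 with Ntn1 and 6446 and 5719 with Unc5b knocked down. Neither was a member.

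The called genes with the largest shared difference, 15 higher and 14 lower, that is, the smaller of the differences in the 2 knock-downs, are plotted by library below. Tmem47, a membrane protein of cell junctions (chromosome X, 81070698 to 81097872), was at 26 and 46 with the empty vector, 846 and 878 with Ntn1 and 1481 and 1369 with Unc5b knocked down. It was 31.8-fold higher (4.81 ± 0.30 SE, limma adjusted p = 0.000454), although its exons overlap another annotated gene. Ptpn22, a phosphatase best known in lymphocytes (chromosome 3, 103859795 to 103912247), was at 55 and 23 with the empty vector, 504 and 495 with Ntn1 and 462 and 644 with Unc5b knocked down, with the 4 knock-down values close together (13.5-fold, limma adjusted p = 0.000923). Zfp334, a zinc finger gene, was at 8 and 32 with the empty vector, 326 and 410 with Ntn1 and 449 and 410 with Unc5b knocked down (19.9-fold).

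**Figure D1:**
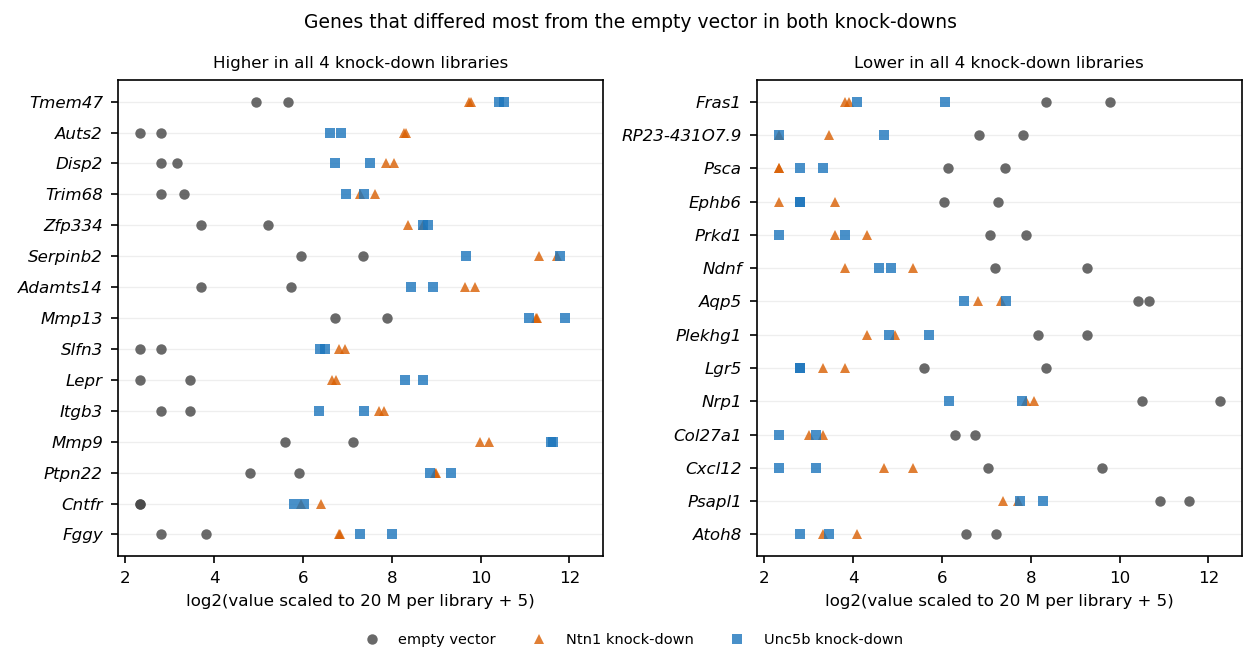
Values in each of the 6 libraries, as log2(scaled value + 5) on the horizontal axis, of the 15 higher (left) and 14 lower (right) called genes with the largest difference shared by both knock-downs. Circles are empty vector, triangles Ntn1 knock-down and squares Unc5b knock-down libraries; Tmem47 stood at 26 and 46 in the controls and at 846 or more in each knock-down library.

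Several of the largest rises began from counts too low for a fold value. Auts2, a gene of neural development, was at 0 and 2 with the empty vector, 316 and 306 with Ntn1 and 92 and 111 with Unc5b knocked down. Disp2, related to a transporter of hedgehog proteins, was at 4 and 2 with the empty vector, 228 and 260 with Ntn1 and 177 and 100 with Unc5b knocked down, Trim68, a ubiquitin ligase, at 2 and 5 with the empty vector, 150 and 193 with Ntn1 and 120 and 160 with Unc5b knocked down, and Slfn3, a Schlafen family gene, at 0 and 2 with the empty vector, 119 and 107 with Ntn1 and 85 and 79 with Unc5b knocked down. Itgb3, integrin beta 3, was at 6 and 2 with the empty vector, 221 and 205 with Ntn1 and 77 and 162 with Unc5b knocked down. All control values of these 5 genes were 6 or less, near or under the floor of 3 reads, while the lowest knock-down value among them was 77. Among cytokine receptor genes, Cntfr, a receptor subunit for ciliary neurotrophic factor, was listed at 0 in both controls and at 57, 80, 51 and 60 in the knock-downs. Lepr, the leptin receptor, was at 6 and 0 with the empty vector, 102 and 95 with Ntn1 and 413 and 310 with Unc5b knocked down, and both Unc5b knock-down values stood far above both Ntn1 knock-down values. Fggy, a carbohydrate kinase gene, was at 2 and 9 with the empty vector, 109 and 107 with Ntn1 and 252 and 151 with Unc5b knocked down. Of the 11 genes in this and the preceding text on the largest rises, 10 stayed called without each library in turn, and Lepr lost its call without empty vector library 2 (limma adjusted p = 0.0709). In all, 11 higher members were listed at 0 in both controls, among them Nod2, Dmbx1 and Cacng4, named here after their values were seen, and no lower member was at 0 in all 4 knock-down libraries.

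On the lower side, Psapl1, a prosaposin-like gene of stratified epithelia (chromosome 5, 36204021 to 36206568), was at 1916 and 3027 with the empty vector, 162 and 205 with Ntn1 and 306 and 213 with Unc5b knocked down. It was 11.2-fold lower (-3.45 ± 0.27 SE, limma adjusted p = 0.000923). Aqp5, a water channel of glandular epithelia (chromosome 15, 99590782 to 99594829), was at 1362 and 1610 with the empty vector, 107 and 156 with Ntn1 and 169 and 86 with Unc5b knocked down (11.5-fold lower, limma adjusted p = 0.000923). Plekhg1, a guanine nucleotide exchange factor gene, was at 281 and 606 with the empty vector, 26 and 15 with Ntn1 and 47 and 23 with Unc5b knocked down (16-fold lower). These 3 were the only ones of the 14 largest falls described here that stayed called without each library in turn. In all 3, both controls stood several times above the highest knock-down value.

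The other large falls lost their call without empty vector library 2, while their direction was fixed by the rule. Nrp1, a co-receptor for VEGF and semaphorins (chromosome 8, 128358604 to 128503363), was at 1439 and 4898 with the empty vector, 233 and 266 with Ntn1 and 220 and 67 with Unc5b knocked down. Cxcl12, the ligand of CXCR4, was at 126 and 777 with the empty vector, 36 and 21 with Ntn1 and 4 and 0 with Unc5b knocked down, and Lgr5, the stem cell receptor whose promoter drives the Cre of this line, at 43 and 322 with the empty vector, 5 and 9 with Ntn1 and 2 and 2 with Unc5b knocked down. In each of these 3, library 2 was several times library 1. Fras1, a basement membrane protein of the Fraser complex, was at 320 and 871 with the empty vector, 10 and 9 with Ntn1 and 62 and 12 with Unc5b knocked down, and Ndnf, a secreted neurotrophic factor, at 141 and 606 with the empty vector, 36 and 9 with Ntn1 and 24 and 19 with Unc5b knocked down. Psca, a surface antigen, was at 65 and 165 in the controls and at 5 or less in each knock-down, and Ephb6, an ephrin receptor without kinase activity, was at 61 and 149 and then 7 or less. Prkd1, protein kinase D1, was at 130 and 231 with the empty vector, 7 and 15 with Ntn1 and 9 and 0 with Unc5b knocked down, Col27a1, a fibrillar collagen, at 73 and 103 with the empty vector, 5 and 3 with Ntn1 and 4 and 0 with Unc5b knocked down, and Atoh8, a helix-loop-helix factor, at 88 and 144 with the empty vector, 5 and 12 with Ntn1 and 6 and 2 with Unc5b knocked down. RP23-431O7.9 completed the 14, at 110 and 222 with the empty vector, 0 and 6 with Ntn1 and 21 and 0 with Unc5b knocked down. Without empty vector library 2, 11 of the 14 lost their call (limma adjusted p 0.0713 to 0.263), and without library 1 only RP23-431O7.9 did (0.0565). The exons of Fras1 and Nrp1 overlap other annotated genes.

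Cytokine genes were among the lists with the most calls in 1 direction. Of 32 tested interleukins, cytokines and receptors, 15 met the rule on the higher side and 4 on the lower side, and limma called 10 higher and 0 lower (median log2 fold change 0.38, beside 0.01 over all genes). Unadjusted p under 0.05 was reached by 15 higher and 3 lower genes of the list. Il1a, the alarm cytokine interleukin-1 alpha of keratinocytes (chromosome 2, 129299610 to 129309972), was at 1246 and 903 with the empty vector, 10538 and 10494 with Ntn1 and 12275 and 11227 with Unc5b knocked down. The 4 knock-down values lay within a narrow band 10.4-fold above the controls (3.38 ± 0.15 SE), with the smallest adjusted p of the genes named here (limma, 6.69e-05), although its exons overlap another annotated gene. Il13ra2, a decoy receptor for interleukin-13, was at 6 and 23 with the empty vector, 88 and 135 with Ntn1 and 393 and 236 with Unc5b knocked down. The other called genes were Lepr, described above, Tnf, Il1rl1, Il1rn, Csf2, Tnfaip3, Tnfaip2 and Lif, listed because the count was small. Of these Tnf, tumour necrosis factor, was at 10 and 7 with the empty vector, 136 and 107 with Ntn1 and 64 and 93 with Unc5b knocked down, and Il1rn, the antagonist of the interleukin-1 receptor, at 26 and 34 with the empty vector, 185 and 205 with Ntn1 and 175 and 130 with Unc5b knocked down. The list had 10 higher calls also without empty vector library 1, and 4 without library 2.

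Among 14 tested chemokine genes, 6 lay on the higher and 1 on the lower side, with 3 called higher and 1 lower (median 0.50). Ccl2, which attracts monocytes, was at 49 and 117 with the empty vector, 378 and 501 with Ntn1 and 498 and 693 with Unc5b knocked down (6.23-fold, limma adjusted p = 0.00443). Cxcl5, a neutrophil attractant, was at 947 and 828 with the empty vector, 3086 and 3293 with Ntn1 and 5392 and 4426 with Unc5b knocked down (4.56-fold), with the Unc5b knock-down libraries the higher pair. Cxcl2 was at 202 and 57 with the empty vector, 785 and 890 with Ntn1 and 368 and 611 with Unc5b knocked down, and the called fall was Cxcl12, given above. Cxcl1, another neutrophil attractant, was at 15040 and 8693 with the empty vector, 13936 and 13558 with Ntn1 and 17394 and 21293 with Unc5b knocked down and was no member. Of 23 tested NF-kB factors and feedback genes, 13 lay on the higher side and 2 on the lower side, but only 3 were called higher and 2 lower (median 0.39). Nos2, the inducible nitric oxide synthase, was at 39 and 69 with the empty vector, 1519 and 1939 with Ntn1 and 678 and 340 with Unc5b knocked down, above the controls in every library and higher with the Ntn1 knock-down. Ptges, a prostaglandin E synthase, was at 409 and 542 with the empty vector, 1198 and 1211 with Ntn1 and 1002 and 938 with Unc5b knocked down, and Traf1, a signalling adaptor, at 920 and 478 with the empty vector, 1890 and 2076 with Ntn1 and 1255 and 1746 with Unc5b knocked down. The negative regulators Tnip2 and Cyld were 1.77-fold and 1.6-fold lower. Other negative regulators went the other way: Tnip3, Nfkbia and Tnip1 lay on the higher side without a call. Tnfaip3, of the interleukin list, was called higher. Il1a, Ccl2 and Cxcl5 stayed called without each library. Of the 12 called genes named in this and the preceding paragraph by rule, 5 lost their call without empty vector library 1 (limma adjusted p 0.0568 to 0.147) and 8 without library 2 (0.0533 to 0.306).

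**Figure D2:**
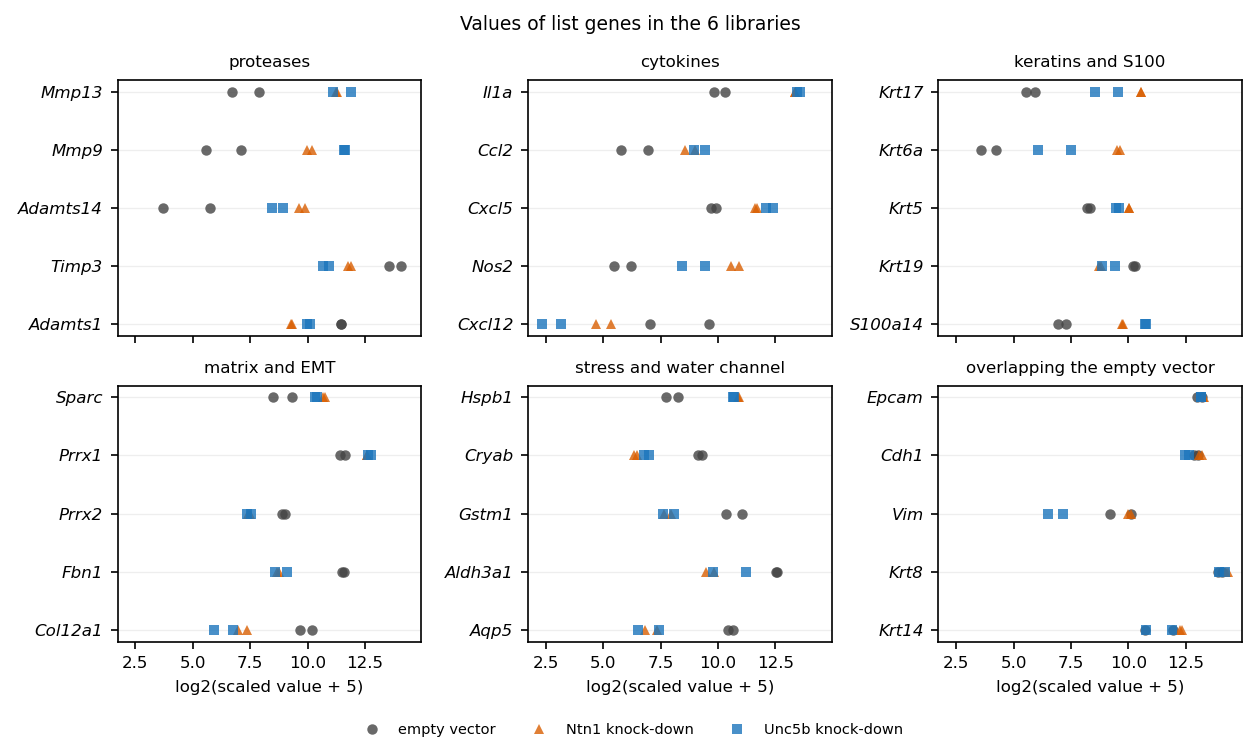
Values of 30 named genes in the 6 libraries, as log2(scaled value + 5) on the horizontal axis, in 6 panels by gene list. Circles are empty vector, triangles Ntn1 knock-down and squares Unc5b knock-down libraries; in the last panel the knock-down values overlap those of the controls, as for Epcam.

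Keratins moved in both directions. Of 16 tested keratin genes, 7 lay above and 4 below both controls, with 4 called higher and 2 lower (median 0.49). Krt17 and Krt6a, keratins of wounded and proliferating epidermis, were at 57 and 41 with the empty vector, 1491 and 1511 with Ntn1 and 365 and 753 with Unc5b knocked down for Krt17 and at 14 and 7 with the empty vector, 789 and 731 with Ntn1 and 62 and 176 with Unc5b knocked down for Krt6a. In both, the order of the groups was the same, with the Ntn1 knock-down highest. Krt5, the basal keratin, was at 287 and 320 with the empty vector, 1034 and 1027 with Ntn1 and 697 and 776 with Unc5b knocked down (2.91-fold, limma adjusted p = 0.00478), and Krt15, a keratin of basal and hair follicle stem cells, at 20 and 41 with the empty vector, 105 and 83 with Ntn1 and 152 and 81 with Unc5b knocked down. On the lower side, Krt19 was at 1191 and 1242 with the empty vector, 442 and 419 with Ntn1 and 671 and 454 with Unc5b knocked down (2.45-fold lower) and Krt76 at 200 and 352 with the empty vector, 57 and 58 with Ntn1 and 85 and 42 with Unc5b knocked down. Krt18, a simple epithelial keratin, lay above both controls in all 4 libraries but by 1.29-fold only, and was not called (limma adjusted p = 0.123). Its partner Krt8 and the basal keratin Krt14 had knock-down values above both controls and others between them. Krt5 was the only keratin that stayed called without each library. The exons of Krt5, Krt6a, Krt76 and Krt8 overlap other annotated genes.

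The list of keratinocyte differentiation had 22 tested genes, with 10 on the higher and 6 on the lower side and 5 called higher and 2 lower (median 0.80). S100a14 was at 118 and 151 with the empty vector, 861 and 841 with Ntn1 and 1725 and 1691 with Unc5b knocked down (9.51-fold), and its Unc5b knock-down values stood above both Ntn1 knock-down values. S100a8, a calcium-binding alarm protein of activated epidermis, was at 2 and 7 with the empty vector, 97 and 135 with Ntn1 and 79 and 76 with Unc5b knocked down, and Dmkn (dermokine) at 6 and 0 with the empty vector, 36 and 83 with Ntn1 and 45 and 49 with Unc5b knocked down. S100a16, of the list of S100 and annexin genes, was at 33 and 34 with the empty vector, 257 and 294 with Ntn1 and 323 and 227 with Unc5b knocked down. The called genes on the lower side were Psapl1, given above, and Klk10, a kallikrein protease at 713 and 503 with the empty vector, 311 and 336 with Ntn1 and 256 and 317 with Unc5b knocked down. Over the keratins and these genes together, 7 of the 12 calls named were lost without empty vector library 2 (limma adjusted p 0.0624 to 0.227) and 4 without library 1 (0.0585 to 0.17).

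The series title concerns EMT, and the lists for it were split in direction. Of 21 tested EMT transcription factors, 4 lay on the higher and 7 on the lower side, with 3 called higher and 5 lower (median -0.02). Prrx1 and Prrx2, paired homeobox factors of mesenchyme, went opposite ways: Prrx1 (chromosome 1, 163245119 to 163313710) was at 2728 and 3165 with the empty vector, 6147 and 6088 with Ntn1 and 6867 and 6356 with Unc5b knocked down, a 2.16-fold rise (1.11 ± 0.12 SE, limma adjusted p = 0.00204). Prrx2 (chromosome 2, 30834972 to 30881251) was at 466 and 512 with the empty vector, 162 and 177 with Ntn1 and 182 and 158 with Unc5b knocked down, 2.88-fold lower (-1.50 ± 0.17 SE, limma adjusted p = 0.00246). Both kept their call without each library. Hmga2, a chromatin factor of embryonic and tumour cells, was at 13395 and 11920 with the empty vector, 25730 and 25857 with Ntn1 and 21136 and 23524 with Unc5b knocked down, and Sox4 at 3592 and 3389 with the empty vector, 7129 and 6345 with Ntn1 and 5848 and 7769 with Unc5b knocked down. Twist2 and Foxf2, factors of mesenchyme, were 3.07-fold and 9.42-fold lower, Foxf2 at 322 and 215 with the empty vector, 59 and 31 with Ntn1 and 19 and 5 with Unc5b knocked down. Vim, the mesenchymal intermediate filament vimentin, was at 582 and 1102 with the empty vector, 1101 and 1009 with Ntn1 and 85 and 137 with Unc5b knocked down, low only with the Unc5b knock-down, and was no member.

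Of 36 tested mesenchymal and matrix genes, 10 lay on the higher and 13 on the lower side, with 5 called higher and 9 lower (median 0.13). Fbn1, which encodes the microfibril protein fibrillin-1 (chromosome 2, 125300594 to 125507993), was at 3083 and 2899 with the empty vector, 426 and 401 with Ntn1 and 541 and 380 with Unc5b knocked down. It was 6.84-fold lower (-2.77 ± 0.17 SE, limma adjusted p = 0.000454) and stayed called without each library. Col12a1, a collagen of fibril surfaces, was at 798 and 1159 with the empty vector, 121 and 159 with Ntn1 and 103 and 56 with Unc5b knocked down, 8.92-fold lower. On the higher side, Lama3, the alpha chain of the epidermal laminin-332, was at 4294 and 3011 with the empty vector, 21692 and 19212 with Ntn1 and 11477 and 13355 with Unc5b knocked down, Sparc, a matricellular protein, at 354 and 640 with the empty vector, 1752 and 1602 with Ntn1 and 1372 and 1274 with Unc5b knocked down, and Tnc (tenascin-C) at 12 and 18 with the empty vector, 50 and 70 with Ntn1 and 126 and 188 with Unc5b knocked down. The list's calls were 4 higher and 3 lower without empty vector library 1, 2 and 1 without library 2, and 5 and 5 after centring each chromosome, as described below. Actin and contractile genes, 37 tested, had 9 on the higher and 2 on the lower side and limma called 3 higher and 0 lower, with an unadjusted p under 0.05 in 10 and 2 (median 0.23). Nes, the intermediate filament nestin, was at 24 and 16 with the empty vector, 397 and 382 with Ntn1 and 188 and 208 with Unc5b knocked down, Map1b, a microtubule protein, at 3437 and 2737 with the empty vector, 11078 and 10647 with Ntn1 and 5897 and 6293 with Unc5b knocked down, and Msn (moesin) at 18017 and 16198 with the empty vector, 24391 and 24365 with Ntn1 and 24464 and 26824 with Unc5b knocked down. Of the 14 called genes named in this and the preceding paragraph, 5 lost their call without empty vector library 1 (limma adjusted p 0.0565 to 0.144) and 9 without library 2 (0.0504 to 0.197).

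**Figure D3:**
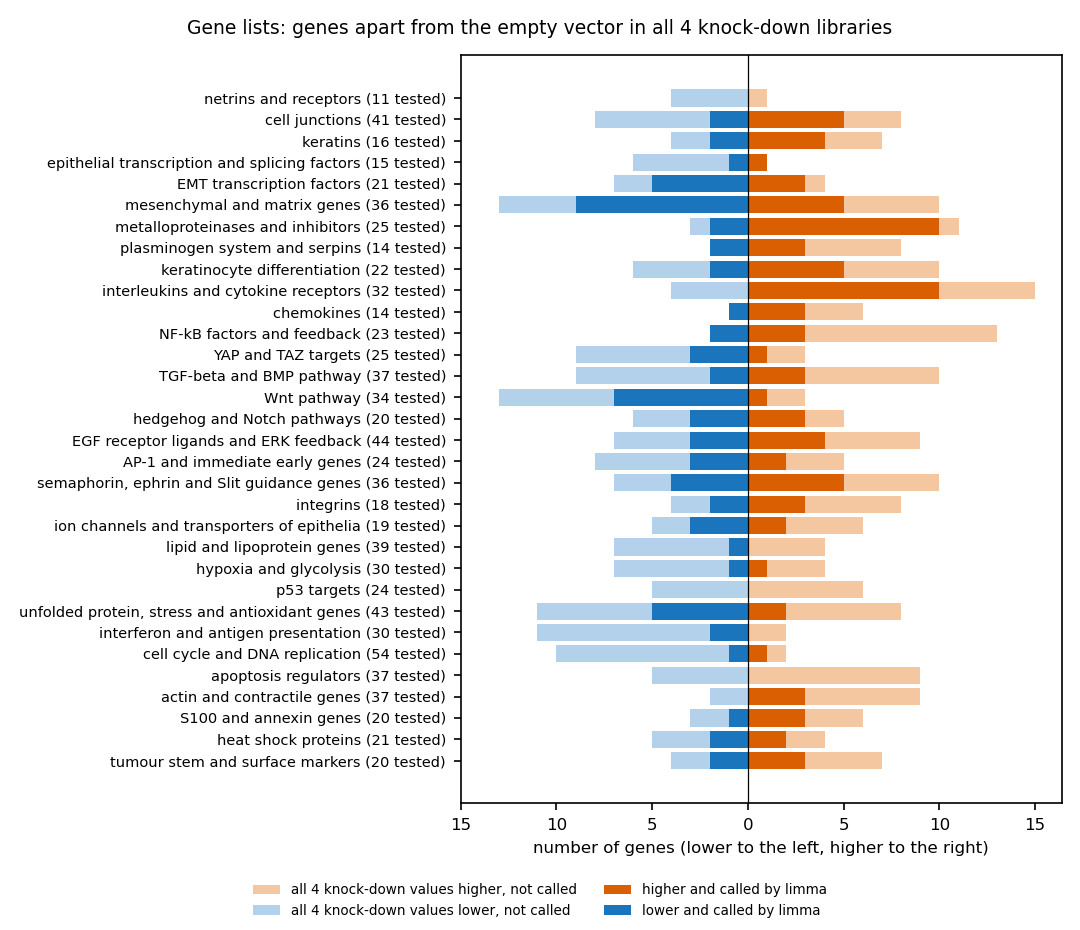
Number of genes per list on the horizontal axis, to the right for genes with all 4 knock-down values above both controls and to the left for those below; darker parts are genes called by limma. The interleukin list has 10 called higher and 0 lower, and the Wnt list 1 higher and 7 lower.

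Junction and adhesion genes changed one by one. Of 41 tested junction genes, 8 lay on each side, with 5 called higher and 2 lower (median -0.09). These members were 39.0% of the list, near the 31.6% over all tested genes. Gjb2, the gap junction protein connexin 26, was listed at 0 in both controls and at 143, 135, 17 and 46 in the knock-downs. Cldn1, a tight junction claudin, was at 96 and 169 with the empty vector, 635 and 758 with Ntn1 and 325 and 426 with Unc5b knocked down, and Pcdh7, a protocadherin, at 5827 and 5067 with the empty vector, 10778 and 9999 with Ntn1 and 12905 and 12355 with Unc5b knocked down. Cdh13, a cadherin without a cytoplasmic part, was at 1983 and 2229 with the empty vector, 483 and 508 with Ntn1 and 992 and 732 with Unc5b knocked down, 3.1-fold lower, and Cldn23 at 242 and 231 with the empty vector, 140 and 138 with Ntn1 and 92 and 116 with Unc5b knocked down. Of 15 tested epithelial transcription and splicing factors, 1 lay on the higher and 6 on the lower side. Ehf, an epithelial ETS factor, was called higher at 16 and 43 with the empty vector, 549 and 630 with Ntn1 and 365 and 111 with Unc5b knocked down, and Klf4, a differentiation factor, was called lower at 2195 and 1617 with the empty vector, 856 and 780 with Ntn1 and 460 and 781 with Unc5b knocked down. Of 18 tested integrins, 8 lay on the higher and 4 on the lower side, with 3 and 2 called. Itga5, a fibronectin receptor subunit, was at 574 and 558 with the empty vector, 2242 and 2137 with Ntn1 and 1406 and 1299 with Unc5b knocked down, Itga1 at 171 and 82 with the empty vector, 504 and 676 with Ntn1 and 263 and 350 with Unc5b knocked down, Itgb3 as given above and, on the lower side, Itgb5 at 2563 and 4253 with the empty vector, 1144 and 1147 with Ntn1 and 2206 and 1235 with Unc5b knocked down and Itga8 at 204 and 199 with the empty vector, 29 and 40 with Ntn1 and 107 and 35 with Unc5b knocked down. Of 20 tumour stem and surface markers, 3 were called higher and 2 lower. Cd44, a hyaluronan receptor, was at 14071 and 14156 with the empty vector, 22294 and 23934 with Ntn1 and 18888 and 22343 with Unc5b knocked down, and Procr, the protein C receptor, at 1199 and 1402 with the empty vector, 630 and 560 with Ntn1 and 836 and 797 with Unc5b knocked down. Apart from Itgb3, no call named in this paragraph held without each library. Without empty vector library 1, 12 of the 14 were lost (limma adjusted p 0.0541 to 0.179), and without library 2, 13 (0.0561 to 0.33).

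Wnt pathway genes leaned to the lower side. Of 34 tested, 3 lay above and 13 below both controls, with 1 called higher and 7 lower (median -0.23). Axin2, a feedback target of Wnt signalling, was at 79 and 345 with the empty vector, 10 and 28 with Ntn1 and 11 and 2 with Unc5b knocked down, and Rspo3, a secreted R-spondin that strengthens Wnt signals, at 193 and 327 with the empty vector, 29 and 34 with Ntn1 and 2 and 0 with Unc5b knocked down. Lgr5, the R-spondin receptor, is given above. The called rise was Nkd2, a Wnt antagonist, at 79 and 48 with the empty vector, 264 and 330 with Ntn1 and 199 and 185 with Unc5b knocked down. The other 4 called lower were Sfrp1, Wnt4, Rnf43 and Ror1, named because the count was small, and Sfrp1, a secreted Wnt antagonist, was at 853 and 1038 with the empty vector, 119 and 131 with Ntn1 and 147 and 116 with Unc5b knocked down. The calls were 1 higher and 3 lower without empty vector library 1 and 1 and 1 without library 2. Of 20 hedgehog and Notch genes, 3 were called higher and 3 lower. The Notch ligands Jag1 and Dll4 were called higher, as was Disp2, given above, with Jag1 at 1712 and 1509 with the empty vector, 5369 and 5134 with Ntn1 and 2533 and 3826 with Unc5b knocked down. The receptor Notch1 was 1.67-fold lower, as were the hedgehog feedback genes Hhip, at 352 and 556 with the empty vector, 67 and 64 with Ntn1 and 21 and 19 with Unc5b knocked down, and Ptch1, 2.02-fold lower.

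Of 37 TGF-beta and BMP genes, 3 were called higher and 2 lower (median 0.11). Bmp7 was at 332 and 761 with the empty vector, 1541 and 1388 with Ntn1 and 2347 and 2173 with Unc5b knocked down and Bmp4 at 96 and 265 with the empty vector, 5 and 9 with Ntn1 and 43 and 19 with Unc5b knocked down, so these ligands differed in opposite directions. Id2, a target of BMP signals, was 3.89-fold lower, Tgfb1 was 1.7-fold higher and Smurf1, a ubiquitin ligase of the pathway, 1.47-fold higher. Of 44 genes of EGF receptor ligands and ERK feedback, 4 were called higher and 3 lower. Pdgfa, a platelet-derived growth factor, was at 2189 and 1873 with the empty vector, 5692 and 5422 with Ntn1 and 6230 and 7190 with Unc5b knocked down (3.02-fold, limma adjusted p = 0.00114), and Areg, the EGF receptor ligand amphiregulin, at 499 and 197 with the empty vector, 1798 and 1605 with Ntn1 and 1084 and 1939 with Unc5b knocked down. Spred3, an inhibitor of ERK signalling, was 2.32-fold higher, Spry1, another, 7.66-fold lower and the receptor Fgfr1 3.5-fold lower. Of 25 YAP and TAZ targets, 3 lay on the higher and 9 on the lower side, with 1 and 3 called (median -0.31). The 9 include Ntn1, which was itself knocked down in 1 of the groups and was not called. Crim1 was at 2407 and 3341 with the empty vector, 1099 and 1193 with Ntn1 and 1500 and 957 with Unc5b knocked down.

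The list of AP-1 and immediate early genes went both ways. It also holds genes outside the FOS and JUN families, such as Myc and Ier2. Of its 24 tested genes, 5 lay on the higher and 8 on the lower side, with 2 called higher and 3 lower. Jun was at 1401 and 1221 with the empty vector, 3384 and 2987 with Ntn1 and 2434 and 2865 with Unc5b knocked down (2.23-fold), and Myc 1.5-fold higher. Fosl2 was at 4235 and 4612 with the empty vector, 2214 and 2223 with Ntn1 and 2640 and 2360 with Unc5b knocked down, 1.87-fold lower, Junb at 8282 and 7214 with the empty vector, 4518 and 4042 with Ntn1 and 5245 and 4466 with Unc5b knocked down and the immediate early gene Ier2 1.83-fold lower. Of the 25 signalling genes named in this and the 2 preceding paragraphs, Pdgfa alone kept its call without each library. Without empty vector library 1, 14 were lost (limma adjusted p 0.0549 to 0.195), and without library 2, 22 (0.0637 to 0.327).

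Beyond netrins, 36 semaphorin, ephrin and Slit guidance genes were tested, of which 10 lay on the higher and 7 on the lower side, with 5 called higher and 4 lower. Plxnd1, a semaphorin receptor, was at 37 and 71 with the empty vector, 212 and 205 with Ntn1 and 169 and 204 with Unc5b knocked down (3.66-fold, limma adjusted p = 0.00734) and kept its call without each library. Slit2, a secreted guidance protein, was at 165 and 183 with the empty vector, 473 and 523 with Ntn1 and 569 and 329 with Unc5b knocked down, and Sema7a, a membrane-anchored semaphorin, 2.4-fold higher. Epha4, an ephrin receptor, was at 1120 and 963 with the empty vector, 549 and 486 with Ntn1 and 291 and 449 with Unc5b knocked down, 2.35-fold lower. Ephb6 and Ndnf, given above, belong to the same list. Without empty vector library 1, 2 of the 6 calls were lost, Slit2 and Epha4 (limma adjusted p 0.0775 to 0.127), and without library 2, 5 (0.0898 to 0.304).

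Stress genes were found on both sides, small heat shock proteins among them. Hspb1, the small heat shock protein HSP27 (chromosome 5, 135887919 to 135889563), was at 210 and 302 with the empty vector, 1845 and 1945 with Ntn1 and 1641 and 1584 with Unc5b knocked down (6.85-fold, 2.77 ± 0.18 SE, limma adjusted p = 0.000454). Cryab, another small heat shock protein, went the other way, at 554 and 631 with the empty vector, 83 and 76 with Ntn1 and 124 and 104 with Unc5b knocked down (6.12-fold lower, limma adjusted p = 0.00115), with an exon overlap. Gstm1, a glutathione transferase, was at 1281 and 2106 with the empty vector, 197 and 242 with Ntn1 and 267 and 192 with Unc5b knocked down (7.54-fold lower), and Aldh3a1, an aldehyde dehydrogenase of surface epithelia, at 5882 and 6018 with the empty vector, 706 and 917 with Ntn1 and 2390 and 866 with Unc5b knocked down. Gsta4 was 1.83-fold lower, Mt2, a metallothionein, 4.67-fold higher, and Slc7a11, the cystine transporter, 2.07-fold higher, at 1881 and 1683 with the empty vector, 3976 and 4223 with Ntn1 and 3390 and 3152 with Unc5b knocked down. Hsp90aa1 was 1.52-fold higher and Dnajb1 1.52-fold lower. Of 43 unfolded protein, stress and antioxidant genes, 2 were called higher and 5 lower, and of 21 heat shock genes 2 and 2. Among 19 tested channels and transporters, Slc12a2, a chloride cotransporter, was at 2187 and 1742 with the empty vector, 5761 and 5391 with Ntn1 and 3561 and 3852 with Unc5b knocked down, and the sodium channel subunit Scnn1a at 407 and 1475 with the empty vector, 57 and 70 with Ntn1 and 227 and 81 with Unc5b knocked down. Kcnk1, a potassium channel, was 1.54-fold lower.

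The remaining lists are set beside the 6.29% called and the 31.6% that met the rule over all tested genes. Limma called 0 of 24 p53 targets, in a line with the p53fl/fl alleles, where 6 lay above and 5 below both controls and 3 and 2 had an unadjusted p under 0.05. It called 0 of 37 apoptosis regulators, where 9 lay above and 5 below and 8 and 4 had an unadjusted p under 0.05. Members were 37.8% of the apoptosis list, near the share over all tested genes. Of 54 cell cycle genes, Ccnd2 (cyclin D2, 6.54-fold) was called higher and Cdk6 (1.48-fold) lower, and 2 lay above and 10 below both controls (median -0.15). Of 30 interferon and antigen presentation genes, 2 lay on the higher and 11 on the lower side, and Ifit2, at 77 and 123 with the empty vector, 5 and 12 with Ntn1 and 15 and 0 with Unc5b knocked down, and Tapbp, at 5841 and 7408 with the empty vector, 3940 and 3700 with Ntn1 and 2855 and 2200 with Unc5b knocked down, were called lower (median -0.32). After centring each chromosome, as described below, this list had 0 higher calls and 1 lower, and Tapbp was no longer called. Of 30 hypoxia and glycolysis genes, Hk2 (hexokinase 2) was 1.66-fold higher and Aldoc 5.76-fold lower. Of 39 lipid genes, Apob, the apolipoprotein B gene, was the only call, at 945 and 1303 with the empty vector, 26 and 24 with Ntn1 and 177 and 88 with Unc5b knocked down (median -0.28). Aqp5, Hspb1, Cryab, Gstm1 and, from the marker lists below, Mitf kept their calls without each library. Over the 21 called genes named for transport, stress and these lists, 12 were lost without empty vector library 1 (limma adjusted p 0.0548 to 0.188) and 14 without library 2 (0.0781 to 0.284).

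Most markers of other cell types that a sort could carry were low, with Csf1r, Mitf and Mbp among the exceptions. Of 24 listed genes of immune cells, 4 reached the mean of 20 and 12 were at 0 in every library, among them Cd4, Adgre1 and Lyz2, and the summed level of the list was 1438 and 1688 with the empty vector, 1005 and 1051 with the Ntn1 knock-down and 1878 and 1325 with the Unc5b knock-down. Csf1r, a receptor of macrophage growth factors, is part of that list. It was at 1213 and 1511 with the empty vector, 347 and 443 with Ntn1 and 1569 and 1003 with Unc5b knocked down. Most of the sum came from Csf1r in the control and Unc5b knock-down libraries. In both Ntn1 knock-down libraries, most of it came from other genes of the list. Csf1r was no member. The other 3 tested immune genes, Mrc1, Cd68 and Cd14, lay above both controls in all 4 knock-down libraries. Of these, 2 had an unadjusted p under 0.05 and 0 were called by limma. Of 14 fibroblast markers 4 were tested, with Pdgfra on the higher side and Twist2 and Postn on the lower side. Only Twist2 was called. The list summed to 1384 and 1569 with the empty vector, 566 and 675 with Ntn1 and 915 and 510 with Unc5b knocked down. Dpt was at 0 and Dcn, Lum and Thy1 were at 20 or less in every library. Endothelial markers summed to 415 to 621 in the 6 libraries and muscle markers to 52 to 186. Melanocyte and nerve markers summed to 4417 and 4298 with the empty vector and to 2058 to 2488 in the knock-downs, with Tyrp1 and Dct at 0 and Mlana and Sox10 at 20 or less in every library. Of the 12 genes of that list 5 were tested, and Mitf, the melanocyte master factor, was called lower at 1513 and 1100 with the empty vector, 311 and 284 with Ntn1 and 299 and 257 with Unc5b knocked down. Mbp (myelin basic protein), of the same list, was at 1378 and 1235 with the empty vector, 732 and 774 with Ntn1 and 1468 and 1346 with Unc5b knocked down and was no member. Part of the list's sum came from genes other than Mitf and Mbp. Ncam1, also of that list, lay below both controls and was not called. The part of other cell types in the results was not tested beyond these levels. In bulk RNA, fewer cells of a type and less RNA per cell cannot be told apart.

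The knock-downs were also set against each other, a difference that takes no empty vector value, although those libraries enter the estimate of the spread. The 3-group limma fit called 1088 genes between them (7.1%). Over all tested genes, 4.15% were called higher and 2.95% lower with the Ntn1 knock-down. Among the higher members 140 were called (5.56%), 106 of them higher with the Ntn1 knock-down. Among the lower members 172 were called (7.4%), 88 of them higher with the Ntn1 knock-down. These shares are near that over all tested genes. Of the 965 pooled calls, 68 also differed between the knock-downs. The rule, which asks that all 4 libraries lie on 1 side, bears on this comparison, so its share is not independent of the choice. The median absolute log2 difference between the knock-downs was 0.18 in the higher and 0.19 in the lower members, beside 0.25 over all tested genes. The member with the largest such difference was Stfa3, a stefin, at 0 and 0 with the empty vector, 207 and 239 with Ntn1 and 2 and 9 with Unc5b knocked down (log2 difference 4.52 ± 0.45 SE, limma adjusted p = 0.00162). Slco4a1, an organic anion transporter, was at 0 and 0 with the empty vector, 183 and 260 with Ntn1 and 9 and 5 with Unc5b knocked down, and Kalrn (kalirin), a guanine nucleotide exchange factor gene, at 114 and 117 with the empty vector, 78 and 89 with Ntn1 and 0 and 2 with Unc5b knocked down. None of these 3 was called in the pooled fit (limma adjusted p = 0.222, 0.179 and 0.287). The 1088 calls fell to 34 without Ntn1 knock-down library 1, to 52 without library 2, and to 318 and 330 without Unc5b knock-down library 1 or 2. In these fits the spread of the lone library comes from the other groups. The calls were 1815 and 1842 without empty vector library 1 or 2, which enter only through the spread.

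The members were not spread evenly over the genome. On chromosome 8, 333 of 881 tested genes (37.8%) lay below both controls in all 4 knock-down libraries and 49 (5.56%) above, whereas over all tested genes the shares were 15.2% and 16.4%. The median tested gene of chromosome 8 was at -0.32 and -0.28 in the Ntn1 knock-down and at -0.22 and -0.27 in the Unc5b knock-down on the log2 scale, relative to the mean of the controls, which stood at -0.01 and 0.01. On this chromosome 80.0% of tested genes had a negative pooled log2 fold change. Chromosome 17 had 236 of 729 tested genes lower (32.4%, median log2 fold change -0.22) and chromosome 2 had 317 of 1181 (26.8%, median -0.16). In the other direction, chromosome 18 had 137 of 376 tested genes higher (36.4%) and 5.59% lower, with a median of 0.29. Chromosome 5 had 355 of 1108 higher (32.0%) and 8.21% lower, with a median of 0.25. In each of these 5 chromosomes the medians of the 4 knock-down libraries lay on 1 side of both controls. The same held on some further chromosomes, among them chromosome 10. Its medians were 0.17 and 0.19 with the Ntn1 knock-down and 0.15 and 0.1 with the Unc5b knock-down. On chromosome 10, 23.6% of tested genes were higher and 7.61% lower.

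**Figure D4:**
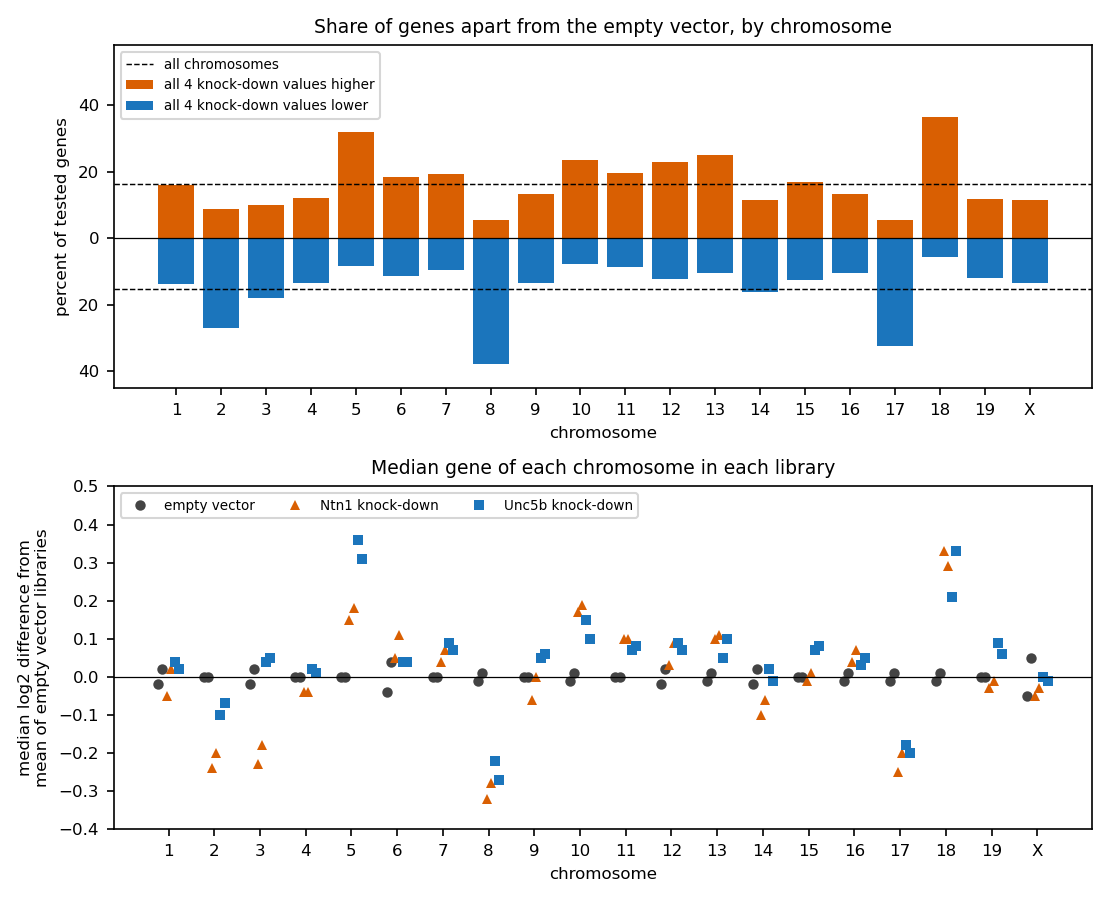
Upper panel: percent of the tested genes of each chromosome with all 4 knock-down values above (upwards) or below (downwards) both controls; dashed lines are the shares over all tested genes, 16.4% and 15.2%. Lower panel: median over each chromosome's tested genes of the log2 difference from the mean of the control libraries, in each library, with the controls near 0 and chromosome 8 between -0.32 and -0.22 in the knock-downs.

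The shift ran along the whole length of some chromosomes and along stretches of others. In windows of 10 Mb with at least 20 tested genes, the share lower on chromosome 8 was 31.4% to 43.1% in all 12 windows, and on chromosome 18 every window had a positive median, from 0.1 to 0.4. On chromosome 17 the windows from 10 to 80 Mb had medians from -0.39 to -0.17, but those at the ends, from 0 to 10 Mb and from 80 to 90 Mb, had 0.03 and -0.02. On chromosome 2 the medians ran from -0.25 to -0.03, and the windows from 0 to 10 Mb and from 180 to 190 Mb had equal shares higher and lower. Chromosome 5 held an exception: between 30 and 40 Mb, 60 of 125 tested genes lay below both controls and 12 above (median -0.51), although every other window of the chromosome had a positive median, up to 0.44. Psapl1 and Fosl2 lie in that stretch. On chromosome 12 the windows from 100 to 110 Mb and from 110 to 120 Mb had medians of 0.45 and 0.44, with 49.2% and 45.5% of genes higher, while the windows before 90 Mb had medians from -0.16 to 0.06. Hsp90aa1, with a log2 fold change of 0.61, lies in the window from 110 to 120 Mb. Chromosome 3 differed between the knock-downs: its median was -0.21 with the Ntn1 knock-down and 0.04 with the Unc5b knock-down.

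Together, chromosomes 2, 8 and 17 held 18.2% of the tested genes and 38.1% of the lower members, and chromosomes 5 and 18 held 9.68% of the tested genes and 19.5% of the higher members. On the remaining chromosomes, chromosome 10 among them, 28.6% of tested genes were members. After the median of each chromosome was subtracted in each library, 2244 higher and 2250 lower genes met the rule, of which 1936 and 1802 were members before. The pooled limma fit then called 433 genes higher and 363 lower, and 404 and 313 of the original calls were among them. Of the 133 called genes that the naming rule gives, 16 lost their call and none changed sign. On chromosome 8 these were Cldn23 (limma adjusted p = 0.151), Cyld (0.167), Dnajb1 (0.213), Kcnk1 (0.157) and Junb (0.0623), and elsewhere they included Smurf1 (0.172) on chromosome 5, Tapbp (0.0809) on chromosome 17 and Notch1 (0.111) on chromosome 2. Mmp13, Il1a, Tmem47, Aqp5, Prrx1 and Prrx2 kept theirs, with limma adjusted p from 2.14e-05 to 0.00387. Psapl1 and Fosl2 lie in the lower stretch of chromosome 5, against which centring on the whole chromosome does not correct. The log2 fold change of Fosl2 went from -0.91 to -1.15 on centring. Only RNA was measured here, so the dosage of a chromosome and the expression of its genes cannot be told apart, and the part of chromosome position was not tested beyond this centring. In annotation, 82.8% of the higher and 83.3% of the lower members were protein coding, against 75.5% of the tested genes that were not members. Their median summed exon length was 4136 and 4076 bases, against 3578. Exons overlapped another gene in 43.3% and 42.7% of members and in 43.7% of the others.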

How the data were processed

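Bulk RNA was measured in 6 libraries of 3 groups, 2 libraries each. The authors aligned and counted reads with STAR, Picard and HTSeq on GRCm38 (mm10), per the submitters' processing notes, per those notes without versions; the strand setting was not stated. The deposited values are whole numbers scaled by the authors to 20 M per library, a normalised score and not counts. The spacing of the lowest values gave each library's depth. From these values, log2(value + 5) of the 15330 genes averaging 20 or more was fitted with limma 3.58.1 (R 4.3.3; trended variance, 2-sided, Benjamini-Hochberg over all tested genes, called at adjusted p under 0.05). The 4 knock-down libraries formed 1 group against 2 controls; a fit of 3 groups gave the single comparisons. The fits were tested on simulated data. Positions and exon overlap came from GENCODE M21, which held 49326 of the IDs, and promoters from RefSeq. Tables were handled with Python 3.11.15.

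Genes were named by rule: the 15 called genes in each direction with the largest difference shared by both knock-downs, up to 3 called genes per list and direction, and up to 2 list genes that were not members; some items are not reported here. The members, the rule and the 37 lists, 5 of them markers of other cell types, were chosen with earlier results of these data known. Deviations of same-numbered libraries correlated at 0.16 (empty vector and Ntn1 knock-down), -0.45 (empty vector and Unc5b knock-down) and -0.17 (both knock-downs). No block was used in the main fit. The value of -0.45 means that empty vector and Unc5b knock-down libraries deviated together when the numbers were exchanged, as in the crossed block. Alternatives were other pseudocounts, scalings and filters, no variance trend, a replicate block and leaving out each library; chromosome centring, the crossed block and the alternatives per list were added after seeing the data.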

Additional observations from a re-analysis of the deposited data

Results flagged for a closer look

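Differences between the knock-downs were tested in the 3-group limma fit for each gene named in the text, as the log2 value with the Ntn1 knock-down minus that with the Unc5b knock-down. The targeted genes were at -1.35 for Ntn1 and 2.60 for Unc5b. Among genes not on 1 side of the controls, Vim was at 3.23, Cdh1 at 0.58, Csf1r at -1.67 and Mbp at -0.90. Higher members with more in the Ntn1 knock-down were Stfa3 at 4.52, Slco4a1 at 4.24, Krt6a at 2.80, Gjb2 at 2.10, Nos2 at 1.83, Dll4 at 1.73, Auts2 at 1.57, Krt17 at 1.51 and Mmp3 at 1.27. Smaller differences the same way were those of Map1b at 0.83, Jag1 at 0.75, Lama3 at 0.72, Itga5 at 0.69 and Slc12a2 at 0.59. Higher members with more in the Unc5b knock-down were Lepr at -1.81, S100a14 at -1.0 and Cxcl5 at -0.62. Among lower members, Kalrn stood at 3.90, Rspo3 at 2.62, Hhip at 1.5 and Timp3 at 1.05, so these were lower in the Unc5b knock-down. Apob at -2.12, Id2 at -1.01, Cdh13 at -0.78 and Adamts1 at -0.75 were lower in the Ntn1 knock-down. Each had a limma adjusted p under 0.05 for the difference.

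Among the 4 knock-down libraries, a single library stood apart by Dixon's criterion in 8 named genes. Mmp1b was at 217 in Ntn1 knock-down library 2. Unc5b knock-down library 1 stood apart for Fras1 at 62, Krt19 at 671, Klf4 at 460, Itgb5 at 2206 and Plxnd1 at 169. Unc5b knock-down library 2 stood apart for Nrp1 at 67 and Msn at 26824. The criterion marks about 5% of such groups by chance.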

How the results depend on the processing

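The pooled counts of 540 higher and 425 lower genes became 1257 and 1144 when the mean of both knock-downs was tested in 3 groups, where the difference between the knock-downs is no longer part of the spread. They became 322 and 283 with no filter on low values, 259 lower with no variance trend, and 297 and 211 with the replicate number as a block. Leaving out 1 library gave 134 to 491 higher and 40 to 436 lower. Against the empty vector, the calls of the Ntn1 knock-down (2314) became 1289 with no filter, 1462 with no trend, 1465 with the block and 507 to 2769 with 1 library left out. Those of the Unc5b knock-down (1835) became 791, 1115, 1102 and 680 to 2428, and those between the knock-downs (1088) became 302, 454, 459 and 34 to 1842. A block that exchanges the numbers of the Unc5b libraries, added after seeing the data, gave 4151, 3585 and 2617 calls in these 3 comparisons and 510 higher and 424 lower in the pooled one. The members, 2517 higher and 2324 lower, became 442 and 344 when the nearest values had to be 1.5-fold apart, and 2864 to 4525 and 2524 to 4289 with 1 library left out, since fewer values then have to agree. Of the 133 called genes the naming rule gives, 47 lost the call with no filter, 42 with no trend, 40 with the block, 59 and 95 without empty vector library 1 or 2, 32 and 29 without either Ntn1 and 14 and 21 without either Unc5b knock-down library; none changed sign. Under the rule, leaving out a library could not change a sign. Pseudocounts of 1 and 20, median-of-ratios scaling and quantile normalization cost 4 or fewer of these calls each. Unless stated, the cause was not tested. Estimated depths of 6.54 to 10.2 M reads limit statements on genes under 3 reads.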
